A study of Mus musculus with 16 samples.

Results

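Growth arrest genes were followed in skeletal muscle of mice with and without the cannabinoid 1 receptor in their muscle fibres. The 8 genes were the CDK inhibitors Cdkn1a, Cdkn1b, Cdkn1c, Cdkn2a and Cdkn2c and the stress genes Gadd45a, Gadd45b and Gadd45g, out of 36799 genes or identifiers on the array. All non-control probes whose transcript in the array file belongs to one of these genes were taken, 10 of 55681 probes: 2 each for Cdkn1a and Cdkn2a and 1 for each other gene. Cdkn1a and Gadd45a were chosen by their measured levels, which were higher in the knockout in an earlier analysis of these arrays. Their genotype differences, and how these differ between diets, are therefore described here without a test. The genotype differences of the other 6 genes and all diet differences were tested. The diet differences of Cdkn1a and Gadd45a use arrays that also entered their choice, so their p values are given as a description.

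The 4 groups were male mice of 21 to 23 weeks, with 4 arrays each (1 replicate per array). WT stands for control littermates (Skm-CB1R+/+) and CB1KO for mice whose loxP-flanked CB1R gene (CNR1) was deleted by Cre under the ACTA1 promoter (Skm-CB1R-/-), which is active in muscle fibres. The other cells of the tissue are not targeted by it. The growth protocol writes both genotypes as CNR1flox/flox with Cre, so whether the controls carried Cre cannot be read from it, and the titles were followed. WT_SD and CB1KO_SD mice ate a standard diet (SD, 16.7% of energy as fat and 12.4% as sugar), and WT_HFHS and CB1KO_HFHS mice a diet rich in fat and sugar (HFHS), with 49.2% of energy as fat and 32.2% as sugar, for 15 weeks. The treatment protocol also mentions assignment to vehicle or S961, an insulin receptor antagonist, without saying which mice received it. The diet tag of the CB1KO_SD and WT_HFHS samples goes against their titles, source names and descriptions, and the titles were followed. Which muscle was dissected is not given.

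CDK inhibitors bind the cyclin-dependent kinases that drive the cell cycle and hold the cell before DNA replication. The Cip/Kip proteins (Cdkn1a, Cdkn1b and Cdkn1c, also called p21, p27 and p57) bind many cyclin-kinase complexes, while the INK4 proteins encoded by Cdkn2a and Cdkn2c (p16 and p18) bind the kinases Cdk4 and Cdk6, so that the retinoblastoma protein stays active and E2F factors stay bound. Cdkn2a also encodes Arf, which stabilises p53 by blocking Mdm2. Gadd45 proteins are small stress-induced partners of the kinase Map3k4, of cyclin B and Cdk1 and of the DNA repair machinery. Muscle fibres have left the cell cycle, and in them Cdkn1a and Gadd45a are known for their rise after denervation, fasting and immobilisation.

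Promoters are shown for Cdkn1a, Gadd45a and Cdkn2a, the genes that stood highest in CB1KO relative to WT on HFHS. The sequences come from RefSeq on GRCm38.p6 and run from 250 bases before to 50 after each start. The array was annotated on mm9, so no probe position is given. Of the 8 genes, 7 had an entry, with 10 promoters in all, and Cdkn1c had none. Capitals mark matches to the TATA box (TATAAA), the CCAAT box (CCAAT), the GC box (GGGCGG), the composite element of ATF4 and C/EBP (TGATGNAA), the FoxO site (TGTTTAC) and the p53 response element (its usual consensus of 20 bases, with the C and G of each core fixed and 1 mismatch allowed elsewhere), searched on both strands. Cdkn1a has 2 starts, at chr17:29090729-29091028 and chr17:29093519-29093818 (plus strand). Gadd45a lies at chr6:67037358-67037657 (minus strand). Both starts of Cdkn2a lie on the minus strand, at chr4:89294570-89294869 and chr4:89282143-89282442.
Cdkn1a first start: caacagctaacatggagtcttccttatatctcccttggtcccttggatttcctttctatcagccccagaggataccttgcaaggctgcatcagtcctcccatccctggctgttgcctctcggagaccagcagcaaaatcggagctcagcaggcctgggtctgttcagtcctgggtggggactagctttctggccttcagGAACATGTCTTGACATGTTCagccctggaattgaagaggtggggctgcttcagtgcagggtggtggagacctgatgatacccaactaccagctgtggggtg
Cdkn1a second start: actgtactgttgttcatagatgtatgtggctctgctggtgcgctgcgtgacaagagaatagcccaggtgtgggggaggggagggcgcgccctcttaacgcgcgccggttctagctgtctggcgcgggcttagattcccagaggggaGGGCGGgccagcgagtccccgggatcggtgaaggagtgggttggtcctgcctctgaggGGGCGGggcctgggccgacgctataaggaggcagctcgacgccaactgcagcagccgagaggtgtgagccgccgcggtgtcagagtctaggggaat
Gadd45a: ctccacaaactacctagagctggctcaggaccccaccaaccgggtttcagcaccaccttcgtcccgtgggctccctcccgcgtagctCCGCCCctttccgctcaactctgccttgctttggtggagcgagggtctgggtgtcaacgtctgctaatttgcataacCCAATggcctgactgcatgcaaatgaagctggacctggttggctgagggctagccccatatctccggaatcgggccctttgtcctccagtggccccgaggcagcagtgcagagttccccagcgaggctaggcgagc
Cdkn2a first start: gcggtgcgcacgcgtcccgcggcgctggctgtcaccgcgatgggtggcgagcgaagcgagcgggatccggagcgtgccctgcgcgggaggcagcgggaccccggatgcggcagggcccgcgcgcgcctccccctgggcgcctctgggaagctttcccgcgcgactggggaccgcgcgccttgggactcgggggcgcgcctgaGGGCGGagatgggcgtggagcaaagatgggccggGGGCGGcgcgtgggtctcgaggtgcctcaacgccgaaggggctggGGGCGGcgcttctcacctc
Cdkn2a second start: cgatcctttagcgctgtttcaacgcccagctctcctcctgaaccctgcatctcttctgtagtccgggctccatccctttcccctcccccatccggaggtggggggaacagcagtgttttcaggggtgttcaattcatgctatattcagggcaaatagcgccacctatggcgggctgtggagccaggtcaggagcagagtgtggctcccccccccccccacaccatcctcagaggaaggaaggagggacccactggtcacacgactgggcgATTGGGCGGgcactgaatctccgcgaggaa

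The promoter at the first start of Cdkn1a held a p53 response element beginning 51 bases before the start, a match found in 22 of 32851 promoters (0.067%). None of the other 9 promoters searched held one in this window. The second start of Cdkn1a held GC boxes at -104 and -46, a motif present in 35.7% of all promoters. Gadd45a had a CCAAT box at -86, a motif in 37.4% of promoters, and a GC box on the reverse strand at -163. The first start of Cdkn2a had GC boxes at -48, -14 and 31, and at its second start a reverse CCAAT box at 20 overlapped a GC box at 23. Among the members not printed, Gadd45g held the ATF4 and C/EBP element on the reverse strand at -101, found in 3.97% of promoters, and a TATA box at -27 (13.6%). The FoxO site (3.65% of promoters) was in none of the 10. These matches describe letters in a window and say nothing of binding in these muscles.

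Levels are given as log2 signal minus the array's 75th percentile, so that 1 unit is a doubling and 0 is a probe as bright as that percentile. Differences are CB1KO minus WT or HFHS minus SD with their standard error (SE) from a limma fit of all 16 arrays. A difference passed where its Benjamini-Hochberg adjusted p over 40654 tested probes was under 0.05. Of the 10 probes, 9 stood well above background on all 16 arrays and were tested. The second, dimmer probe of Cdkn2a did so on none, lay between -7.33 and -4.82 and was not tested. Levels of different probes are not compared. Nothing in the labels says more of the replicates than that they are separate samples, and p values measure the spread between them.

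The skeletal muscle fibre markers averaged 7.65 to 8.97 over the 16 arrays and all 8 were measured, with none past the threshold between genotypes. Each diet had a slide of its own, and diet cannot be told apart from slide. WT filled the first row and CB1KO the second row of both slides, and genotype cannot be told apart from slide row. Signal spread, the SD of log2 signal over an array, ran from 3.117 to 3.671 on all arrays but 2. It was narrower on CB1KO_SD replicate 2 (2.864) and wider on CB1KO_HFHS replicate 1 (3.969). Of the spots, 56.7% to 75% stood well above background. In whole muscle, fewer cells of a type and less RNA per cell cannot be told apart.

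The brighter Cdkn1a probe, Gadd45a and the brighter Cdkn2a probe were higher in CB1KO than in WT muscle when both diets were averaged. For the chosen Cdkn1a and Gadd45a this is a description. Cdkn1b, Cdkn1c, Cdkn2c, Gadd45b and Gadd45g did not pass, nor, as a description, did the dimmer Cdkn1a probe. Of the 9 tested probes, 3 passed, all higher, against 0.787% of all tested probes in either direction and 0.295% in the higher one. Of those 3 the probes of Cdkn1a and Gadd45a were chosen for this contrast, which leaves Cdkn2a. At an unadjusted p under 0.05, 4 were higher, those of the chosen Cdkn1a and Gadd45a among them, and 0 lower, beside 14.7% of all tested probes. With both arrays of unusual spread left out, 3 probes passed, those of the chosen Cdkn1a and Gadd45a among them, but so did 2.97% of all tested probes. The median difference of the 9 probes was 0.28, beside -0.14 over all tested probes, and on HFHS 0.04 beside -0.15. These 9 include the probes of the chosen Cdkn1a and Gadd45a, so nothing is read from the medians. On HFHS the probes of Gadd45a and Cdkn2a passed, 2 of the 9, where the share of all tested probes was 0.231% (0.17% in the higher direction). Gadd45a was chosen for its rise, and without it 1 call is left, that of Cdkn2a. Without both arrays of unusual spread 3 of the 9 passed on HFHS, those of the chosen Cdkn1a and Gadd45a among them, and 0.588% of all tested probes. At an unadjusted p under 0.05, 4 were higher there, those of the chosen Cdkn1a and Gadd45a among them, beside 9.12% of all tested probes. On SD 0 of 9 passed, against 0.00246%. At an unadjusted p under 0.05, 2 were higher on SD, Gadd45b and the chosen Cdkn1a, and 1 lower, beside 8.79% of all tested probes.

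**Figure D1:**
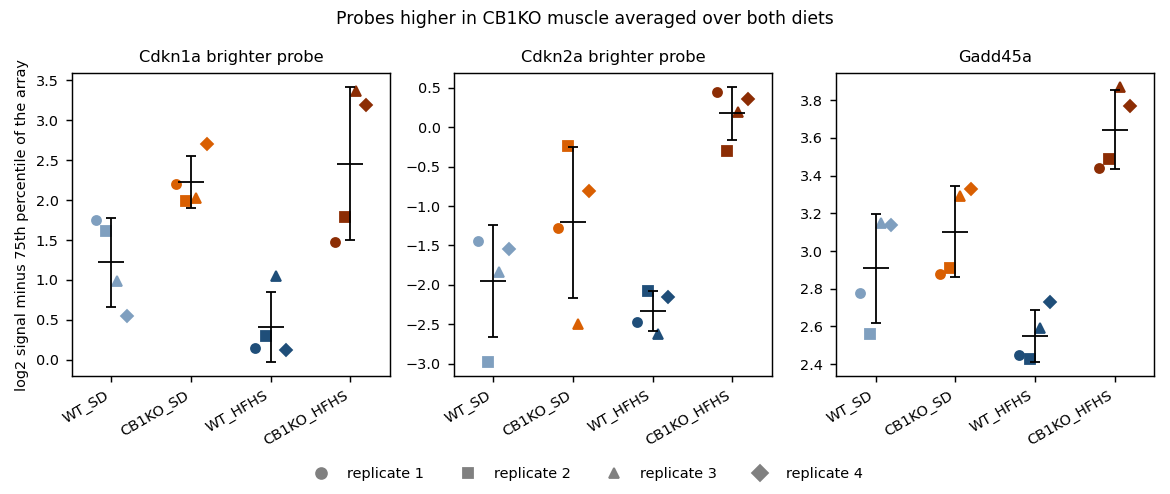
Log2 level (log2 signal minus the array's 75th percentile) of the brighter Cdkn1a probe, Gadd45a and the brighter Cdkn2a probe in each of the 16 arrays, by group, with a bar at each group mean and an SD error bar; marker shape gives the replicate and each panel has its own axis. On HFHS the 4 CB1KO arrays lie above the 4 WT arrays for all 3 probes.

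Cdkn1a encodes p21, the best known target of p53 and an inhibitor of cyclin E and A kinases. Its brighter probe (A_51_P363947), printed 10 times on the array and averaged, read 1.75, 1.61, 0.98 and 0.55 on the WT_SD arrays and 2.20, 1.99, 2.03 and 2.70 on the CB1KO_SD arrays. In WT_HFHS the 4 values were 0.15, 0.30, 1.05 and 0.12, and in CB1KO_HFHS 1.48, 1.79, 3.37 and 3.19. The CB1KO arrays lay above the WT arrays of the same diet without overlap on either diet. The CB1KO_HFHS arrays themselves fell into replicates 1 and 2 below and 3 and 4 above.

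The group means of Cdkn1a were 2.46 ± 0.96 (SD, n = 4) in CB1KO_HFHS, 2.23 ± 0.33 in CB1KO_SD, 1.22 ± 0.56 in WT_SD and 0.40 ± 0.44 in WT_HFHS. In this order the 2 CB1KO groups overlapped each other and the 2 WT groups overlapped each other, with a gap between CB1KO_SD and WT_SD. As a description, the difference between genotypes was 1.01 ± 0.42 (SE) on SD and 2.05 ± 0.42 on HFHS, which is 4.15-fold, and 1.53 ± 0.29 or 2.89-fold on average. Without both arrays of unusual spread it was 2.38 on HFHS and 1.73 on average. Diet moved the probe by -0.82 ± 0.42 in WT (limma adjusted p = 0.923, exact permutation p = 0.0857) and by 0.23 ± 0.42 in CB1KO (adjusted p = 0.855, exact p = 0.714), neither past the threshold. The genotype difference on HFHS minus that on SD was 1.05 ± 0.59, as a description.

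The second probe of Cdkn1a (A_55_P1986282), which the array file assigns to another transcript of the gene, did not show this pattern. It read -2.64, -3.13, -2.84 and -2.24 in WT_SD and -3.34, -1.69, -3.02 and -3.34 in CB1KO_SD. On HFHS it read -3.14, -2.87, -2.73 and -3.75 in WT and -3.75, -2.53, -2.75 and -3.52 in CB1KO, and all 4 groups overlapped. Its difference between genotypes averaged -0.08 ± 0.27 (SE), and 0.01 with signal spread as a covariate. Over the 16 arrays its level had a Pearson correlation of -0.85 with signal spread, against 0.00 for the brighter probe. The part of signal spread in the values of the dimmer probe beyond that covariate was not tested.

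Gadd45a encodes a stress-induced protein that binds Map3k4 and the proliferating cell nuclear antigen. Its probe (A_51_P296608) read 2.78, 2.56, 3.15 and 3.14 in WT_SD and 2.88, 2.91, 3.29 and 3.33 in CB1KO_SD, which overlapped. On HFHS the WT arrays read 2.45, 2.43, 2.59 and 2.73 and the CB1KO arrays 3.44, 3.49, 3.87 and 3.77, which did not. CB1KO_HFHS stood above the other 3 groups without overlap, while CB1KO_SD, WT_SD and WT_HFHS each overlapped the next. The genotype difference was 0.19 ± 0.17 (SE) on SD, 1.09 ± 0.17 or 2.13-fold on HFHS, and 0.64 ± 0.12 or 1.56-fold averaged over both, all as a description. Without both arrays of unusual spread these were 1.16 on HFHS and 0.71 on average.

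Feeding HFHS in place of SD went with -0.36 ± 0.17 for Gadd45a in WT (limma adjusted p = 0.874, exact permutation p = 0.0857) and 0.54 ± 0.17 in CB1KO (adjusted p = 0.295, exact p = 0.0286, the smallest that 4 against 4 arrays allow). The CB1KO arrays did not overlap between diets. The CB1KO_HFHS arrays also enter the rise for which Gadd45a was chosen, so these p values and the lack of overlap are a description. The genotype difference on HFHS minus that on SD was 0.90 ± 0.24, as a description.

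Cdkn2a, which encodes p16 and Arf and is known as a marker of senescent cells, was the member outside the choice that passed. Its brighter probe (A_55_P2008437) read -1.44, -2.98, -1.83 and -1.54 in WT_SD and -1.28, -0.24, -2.49 and -0.81 in CB1KO_SD, which overlapped. In WT_HFHS it read -2.47, -2.08, -2.62 and -2.15, and in CB1KO_HFHS 0.45, -0.30, 0.19 and 0.36, which did not overlap. Group means were -1.95 ± 0.71 (SD, n = 4) in WT_SD, -1.21 ± 0.95 in CB1KO_SD, -2.33 ± 0.26 in WT_HFHS and 0.17 ± 0.33 in CB1KO_HFHS. Ordered by mean, each group overlapped its neighbour.

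On HFHS Cdkn2a was 5.68-fold higher in CB1KO (2.51 ± 0.42 on the log2 scale, SE, 95% interval 1.60 to 3.41, limma adjusted p = 0.0264, exact permutation p = 0.0286). Averaged over both diets it was 3.08-fold higher (1.62 ± 0.30, interval 0.98 to 2.26, adjusted p = 0.0267, exact p = 0.00367 with arrays permuted within diet). On SD the difference of 0.74 ± 0.42 did not pass (adjusted p = 0.672, exact p = 0.257). The averaged call held in 8 of the 16 fits that left out 1 array and the HFHS call in 10 of 16. It was lost on average without WT_SD replicate 3, CB1KO_SD replicate 1 or 4, WT_HFHS replicate 1, 2 or 4, or CB1KO_HFHS replicate 3 or 4 (adjusted p up to 0.0646), and on HFHS without any 1 of the 4 WT_HFHS arrays or CB1KO_HFHS replicate 3 or 4 (adjusted p up to 0.107), while the difference itself stayed between 1.45 and 1.84 and between 2.41 and 2.66. With the narrowest and the widest array dropped, the difference was 1.42 on average (limma adjusted p = 0.0278) and 2.42 on HFHS (adjusted p = 0.0277). With slide as a block the averaged value had a limma adjusted p of 0.058. Slide is diet here, which the main fit already holds, so this model differs only by leaving out the genotype-by-diet term. With replicate number, which is the slide column, as a block the limma adjusted p was 0.0611 on average and 0.0782 on HFHS, so neither call held. The probe's place in the alternative first exons of Cdkn2a was not determined, so the transcripts of p16 and Arf are not told apart.

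Between diets, Cdkn2a differed by 1.38 ± 0.42 in CB1KO (limma adjusted p = 0.274, exact permutation p = 0.0571) and by -0.39 ± 0.42 in WT (adjusted p = 0.999), and neither passed. Its interaction was 1.76 ± 0.60 (interval 0.48 to 3.05, unadjusted p = 0.0106, adjusted p = 1). The difference between genotypes was thus not shown to depend on the diet.

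Markers of other cells and of slow fibres are given beside these genes, and none of those named here passed between genotypes. The 7 macrophage markers averaged -0.03 to 1.13 in WT_HFHS and 0.84 to 2.01 in CB1KO_HFHS. All 7 had positive differences with a median of 0.71, and 0 of 7 passed the limma threshold (3 had an unadjusted p under 0.05). On HFHS 9.12% of all tested probes had an unadjusted p under 0.05, and the median over all tested probes was -0.15. On SD these were 8.79% and -0.12. The 6 smooth muscle and pericyte markers averaged 2.75 to 3.35 in WT_HFHS and 2.41 to 2.67 in CB1KO_HFHS, with a median of -0.48 and 0 of 6 past the threshold (2 at an unadjusted p under 0.05). On SD, where Cdkn1a also separated the genotypes, the 7 slow-twitch fibre markers averaged -1.04 to 3.75 in WT and 3.90 to 5.70 in CB1KO, with all 7 differences positive, a median of 2.96, and 0 past the threshold (3 at an unadjusted p under 0.05). The 4 neutrophil markers on the array averaged 0.43 to 0.50 in WT_SD and 0.50 to 1.51 in CB1KO_SD, with a median difference of 0.62 and 0 past the threshold (2 at an unadjusted p under 0.05). All 6 adipocyte markers had negative differences on SD, with a median of -1.05, averages of -0.96 to 3.35 in WT and -0.84 to 1.98 in CB1KO, and 0 past the threshold or at an unadjusted p under 0.05. On the diet not given above, the median was 0.00 for macrophage and 0.24 for smooth muscle and pericyte markers on SD. On HFHS it was 0.06 for slow-twitch, 0.10 for neutrophil and 0.26 for adipocyte markers. No satellite cell, fibroblast, endothelial, lymphocyte or Schwann cell marker passed between genotypes either, and these lists are not detailed. The part of the marker levels in the levels of Cdkn1a, Gadd45a and Cdkn2a was not tested.

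Cdkn1c encodes p57, the imprinted Cip/Kip inhibitor, which acts in muscle differentiation. Its levels were 3.02, 2.86, 3.02 and 3.09 in WT_SD and 3.25, 3.27, 2.86 and 3.30 in CB1KO_SD. On HFHS they were 3.08, 3.07, 2.93 and 3.10 in WT and 3.27, 3.47, 3.69 and 3.77 in CB1KO. The HFHS groups did not overlap, whereas on SD 1 CB1KO array lay with the WT arrays. The difference was 0.51 ± 0.14 on HFHS (SE, limma adjusted p = 0.208, exact permutation p = 0.0286) and 0.34 ± 0.10 on average (adjusted p = 0.125, exact p = 0.00408, interval 0.13 to 0.55), so it did not pass over all probes. It did pass with array weights (adjusted p = 0.0228 on average and 0.00273 on HFHS), a setting under which 7.5% and 7.77% of all probes passed, and on average with signal spread as a covariate (0.0359).

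Cdkn1b encodes p27, the inhibitor that keeps resting cells out of the cycle. It read 3.75, 3.85, 3.66 and 3.19 in WT_SD, 3.45, 3.16, 3.61 and 3.60 in CB1KO_SD, 3.85, 3.92, 3.56 and 3.95 in WT_HFHS and 3.69, 3.33, 3.73 and 3.51 in CB1KO_HFHS. All groups overlapped. The average genotype difference of -0.21 ± 0.12 (SE) did not pass (limma adjusted p = 0.441, exact permutation p = 0.0776), and its 95% interval ran from -0.46 to 0.05.

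Cdkn2c encodes p18, the INK4 inhibitor that is induced during muscle differentiation. It read 0.80, 0.46, 0.27 and 0.28 in WT_SD and 0.14, 0.04, 0.06 and 0.17 in CB1KO_SD, lower in CB1KO without overlap. In WT_HFHS it read 0.52, 0.50, 0.07 and 0.57 and in CB1KO_HFHS 0.83, 0.27, 0.33 and 0.40, which overlapped. The differences were -0.35 ± 0.16 (SE) on SD (limma adjusted p = 0.564, exact permutation p = 0.0286) and 0.04 ± 0.16 on HFHS (adjusted p = 0.936). Within CB1KO the HFHS arrays lay above the SD arrays without overlap, by 0.36 ± 0.16 (adjusted p = 0.511, exact p = 0.0286), which did not pass either.

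**Figure D2:**
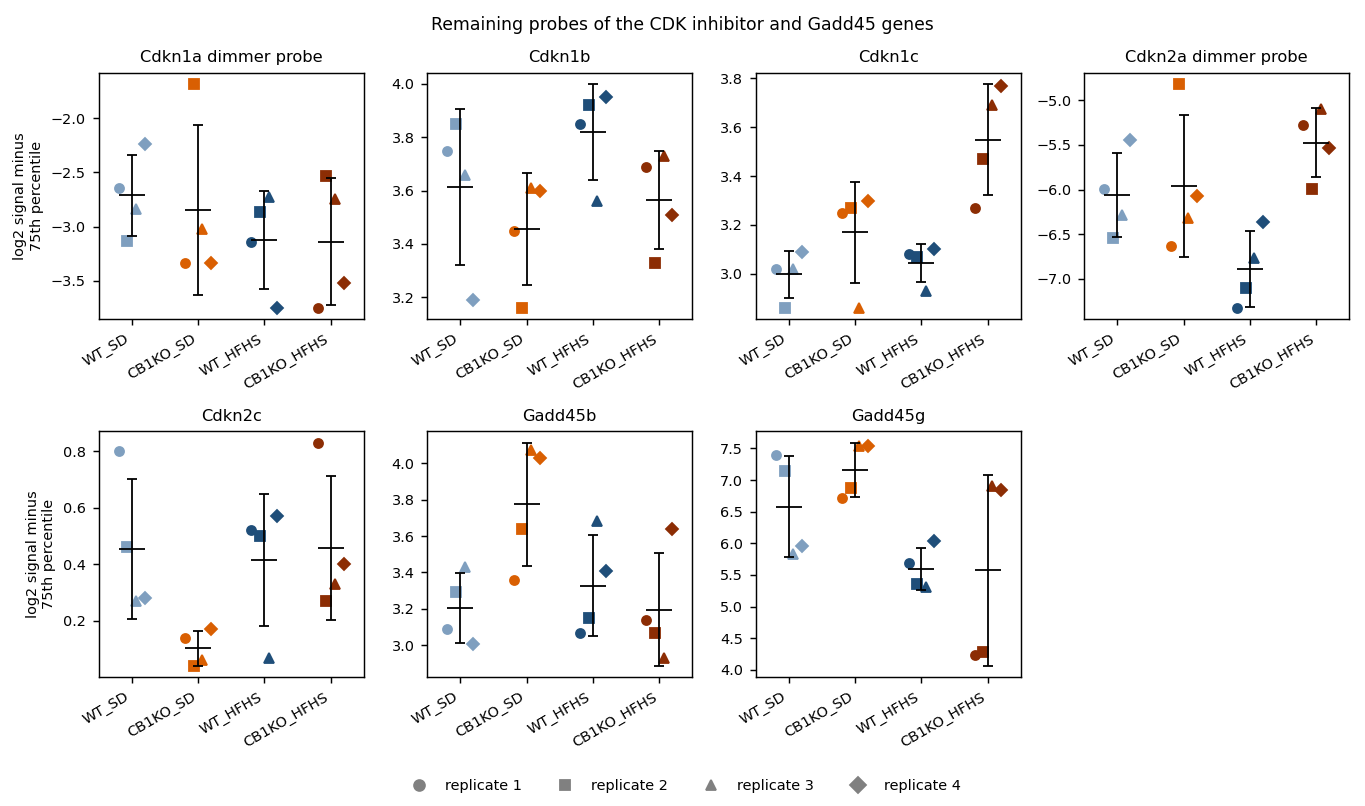
Log2 level (log2 signal minus the array's 75th percentile) of the remaining 7 probes in each of the 16 arrays, by group, with a bar at the mean and an SD error bar; marker shape gives the replicate and each panel has its own axis. Cdkn1c is apart between genotypes on HFHS and Cdkn2c on SD. The dimmer Cdkn2a probe is also apart on HFHS, higher in CB1KO, but is not well above background on any array and was not tested.

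Gadd45b, a relative of Gadd45a that also activates Map3k4, read 3.09, 3.29, 3.43 and 3.01 in WT_SD and 3.36, 3.64, 4.07 and 4.03 in CB1KO_SD. On HFHS it read 3.07, 3.15, 3.68 and 3.41 in WT and 3.14, 3.07, 2.93 and 3.64 in CB1KO. The only array values above 4 belonged to CB1KO_SD. The genotype difference was 0.57 ± 0.20 (SE) on SD (limma adjusted p = 0.438, exact permutation p = 0.0571) and -0.13 ± 0.20 on HFHS (adjusted p = 0.838). Its interaction of -0.71 ± 0.29 (interval -1.33 to -0.09, adjusted p = 1) had the opposite sign to that of Gadd45a.

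Gadd45g, the third Gadd45 gene, varied widely within groups. It read 7.39, 7.14, 5.83 and 5.96 in WT_SD, 6.71, 6.87, 7.53 and 7.53 in CB1KO_SD, 5.69, 5.36, 5.31 and 6.03 in WT_HFHS and 4.24, 4.28, 6.91 and 6.85 in CB1KO_HFHS. In CB1KO_HFHS replicates 1 and 2 were low and 3 and 4 high, and the group spanned the whole WT_HFHS range. The genotype difference was 0.58 ± 0.60 (SE) on SD (limma adjusted p = 0.862) and -0.03 ± 0.60 on HFHS (adjusted p = 0.99, interval -1.31 to 1.25). The diet differences were -0.98 ± 0.60 in WT (adjusted p = 0.98, exact permutation p = 0.0857) and -1.59 ± 0.60 in CB1KO (adjusted p = 0.404, exact p = 0.143).

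**Figure D3:**
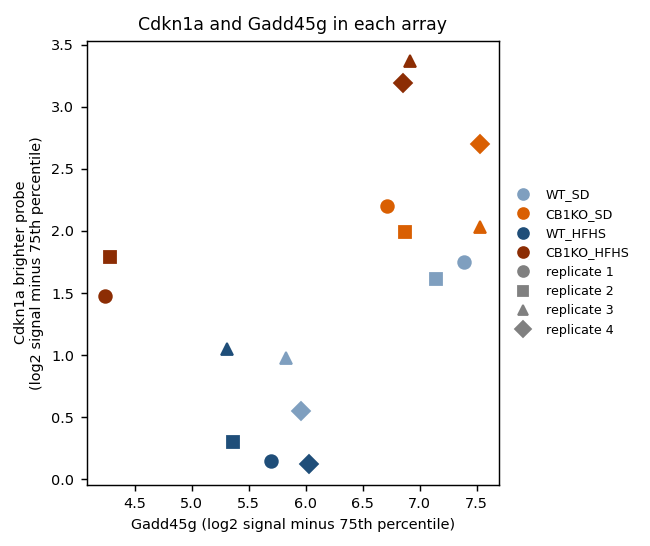
Log2 level (log2 signal minus the array's 75th percentile) of the brighter Cdkn1a probe (vertical axis) and of Gadd45g (horizontal axis) in the 16 arrays, with colour for the group and shape for the replicate. Within CB1KO_HFHS 2 arrays are low for both genes and 2 are high for both.

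The same 2 CB1KO_HFHS arrays were low for Cdkn1a and Gadd45g, and in WT_SD replicates 1 and 2 were high for both genes and 3 and 4 low. Across the 16 arrays, with 1 slide per diet, the 2 probes had a Pearson correlation of 0.50, and deviations from the group means one of 0.81. Gadd45a and the brighter Cdkn1a probe correlated at 0.74 over the arrays and at 0.19 after the group means were taken off. Cdkn2a correlated with Cdkn1c at 0.87 (0.62 for deviations) and with Gadd45a at 0.78 (0.09). These values are descriptions, and the groups themselves contribute to the first of each pair.

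**Figure D4:**
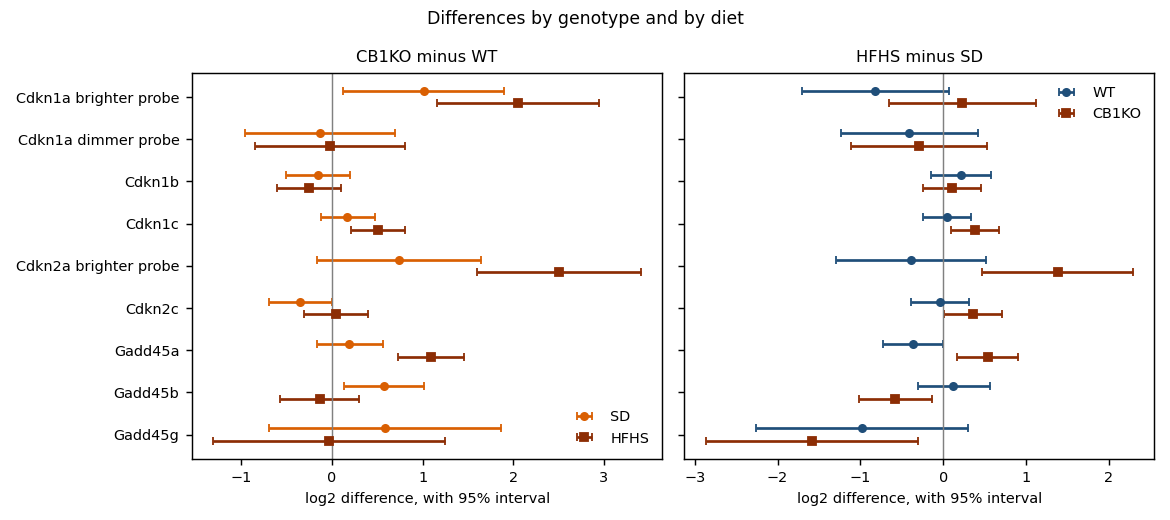
Log2 difference of each tested member probe with its 95% interval, on the left CB1KO minus WT on SD and on HFHS, on the right HFHS minus SD in WT and in CB1KO. The genotype differences of Cdkn1a and Gadd45a were used in choosing the members. On HFHS Cdkn2a (2.51), Cdkn1a (2.05) and Gadd45a (1.09) lie farthest above 0.

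Between genotypes on HFHS, Cdkn1c and Cdkn2a were higher in all CB1KO arrays than in any WT array. So were the brighter Cdkn1a probe and Gadd45a, which had been chosen for their rise, and nothing is read from the resulting 4 of 9. Of all tested probes 2.92% were apart in that direction and 9.8% in either. On SD 2 of 9 were apart, Cdkn2c lower and the chosen Cdkn1a higher, where 4.07% of all tested probes were apart in either direction. No member was apart between diets in WT, beside 5.19%. In CB1KO 2 of 9 were apart between diets, Cdkn2c and the chosen Gadd45a, both higher on HFHS, beside 2.42% in that direction and 3.75% in either. By the adjusted p in limma, 0 of 9 probes passed between diets in WT (0% of all tested probes) and 0 of 9 at an unadjusted p under 0.05, beside 5.76%. In CB1KO 0 of 9 passed (0.0123% of all tested probes). At an unadjusted p under 0.05, 4 were higher there, that of the chosen Gadd45a among them, and 2 lower, beside 9.64% of all tested probes. The interaction had 0 of 9 (0% of all). At an unadjusted p under 0.05 it had 2 positive (Cdkn2a and the chosen Gadd45a) and 1 negative (Gadd45b), where the share of all tested probes was 3.39%.

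The genes around the inhibitors were taken from lists, whose difference averaged over both diets is given here. Of all tested probes 0.787% passed in this contrast and 14.7% had an unadjusted p under 0.05. Of 25 genes of p53 and its targets, all tested, 0 rose and 1 fell, the ectodysplasin A2 receptor gene Eda2r (-0.55 ± 0.12, SE, limma adjusted p = 0.0464), and their median was -0.02 (3 higher and 4 lower at an unadjusted p under 0.05). Pmaip1, which encodes the pro-apoptotic Noxa, had 1.54 ± 0.45 (adjusted p = 0.137) and the DNA polymerase gene Polk -0.61 (adjusted p = 0.0791), neither past the threshold. Of 13 retinoblastoma and E2F genes 1 rose and 0 fell, and the median was -0.06 (1 higher and 1 lower at an unadjusted p under 0.05). That gene was E2f2, an activating E2F factor, with 0.80 ± 0.17 (adjusted p = 0.0449) on average and 1.53 ± 0.24 (adjusted p = 0.0189) on HFHS. The E2f2 call on average held in 4 of 16 fits without 1 array, and that of Eda2r in 2 of 16 and the call of E2f2 on HFHS in 11 of 16.

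None of the 18 regulators of Cdkn1a, Cdkn1b and Gadd45 transcription passed in the main fit (median 0.16). Among them the myogenic factors Myod1 and Myog had 0.96 ± 0.22 (SE, limma adjusted p = 0.062) and 1.17 ± 0.33 (adjusted p = 0.123), and the stress factor Atf3 1.74 ± 0.46 (adjusted p = 0.103). Myod1 passed in 7 of 12 other alternatives and in 2 of 16 fits without 1 array. For Myog these counts were 2 and 1, and for Atf3 2 and 0. Of these 18, 6 were higher and 1 lower at an unadjusted p under 0.05, where 14.7% of all tested probes were. Among 15 tested of 18 proliferation genes 0 passed (median 0.13, 1 higher and 1 lower at an unadjusted p under 0.05), with the ribonucleotide reductase gene Rrm2 at 0.79 (adjusted p = 0.186). Nor did any of the 10 tested of 12 cyclins and kinases pass (median 0.01, 1 higher at an unadjusted p under 0.05), with the mitotic cyclin Ccnb1 at 0.90 (adjusted p = 0.247). The 10 Gadd45 partners and stress kinases (median -0.17) and the 9 tested relatives and partners of the CDK inhibitors (median -0.02) had 0 calls too, with 0 and 1 at an unadjusted p under 0.05. The median over all tested probes was -0.14.

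**Figure D5:**
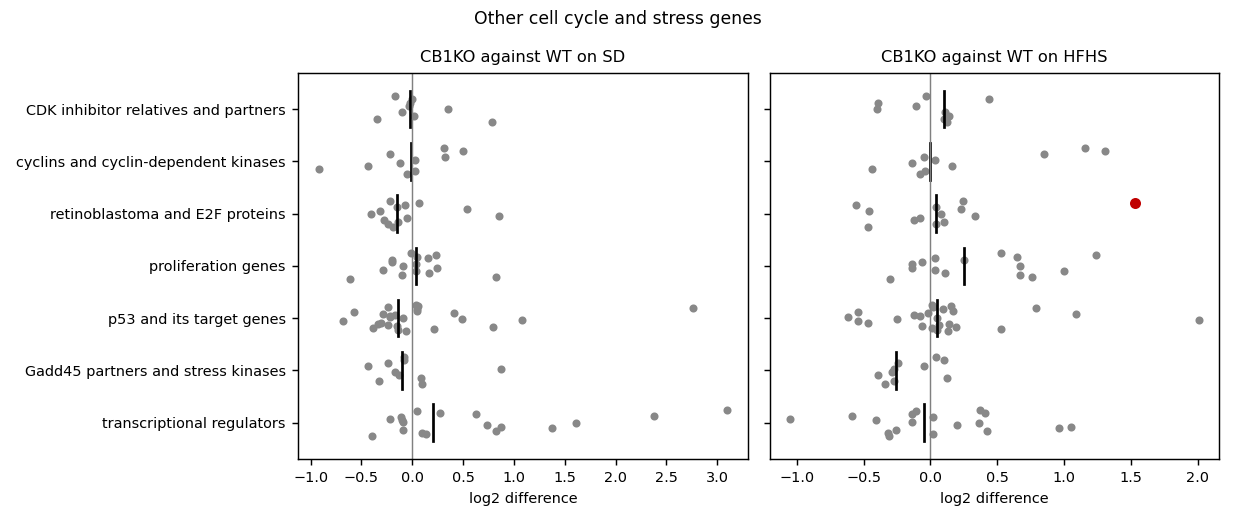
Log2 difference of each tested gene of the 7 lists, CB1KO against WT on SD (left) and on HFHS (right), with a black line at each list's median and genes past the threshold in red. The 1 red point is E2f2 on HFHS (1.53), and the median of the proliferation genes is 0.04 on SD and 0.25 on HFHS.

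Genes whose levels followed Cdkn1a and Gadd45a most closely over the 16 arrays were looked up among 12652 genes measured on all arrays. Among those nearest to the brighter Cdkn1a probe were Phlda1 (Pearson r = 0.888, and 0.845 for deviations from the group means), Sik1 (0.831 and 0.818), Cda (0.829 and 0.670) and Ctxn3 (0.827 and 0.384). Nearest to Gadd45a were Gsdma (0.878 and 0.274), Cacnb4 (0.875 and 0.462), Chrna1 (0.855 and 0.570), Muc4 (0.849 and 0.628) and Tbce (0.846 and 0.601). Phlda1 and Sik1 thus varied with Cdkn1a within groups as well as between them, and Gsdma with Gadd45a mainly between groups. Chrna1 encodes a subunit of the acetylcholine receptor at the neuromuscular junction, and Sik1 a salt-inducible kinase.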

How the data were processed

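RNA from 16 muscle samples was hybridised to 1-colour Agilent arrays. The deposited scanner files give spot intensities from Feature Extraction 11.5.1.1, per the file headers, among them a processed intensity with the background removed. A score per spot in the authors' deposited series table equalled the standardised log2 processed intensity of each array to within 0.005.

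From the processed intensity of 55681 probes, log2 values minus each array's 75th percentile were computed, outlier spots (0.284% of tested values) were set to missing and repeated spots averaged. The 40654 probes that stood well above background on 4 or more of the 16 arrays were kept. A model with 1 mean per group was fitted in R 4.3.3 with limma 3.58.1. Exact permutation tests were two-sided, and 4 against 4 arrays cannot go below 0.0286. No spot was saturated. The number of arrays limits the precision.

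Members, lists and the array alternatives were chosen with earlier results of these data known. All members were named, with up to 4 genes per list by p value and the 5 genes most correlated with Cdkn1a and with Gadd45a, of which 1 is not reported here. On simulated data the model recovered 51% of log2 changes of 1 and 79% of changes of 2 in the averaged contrast over 40654 probes. Alternatives were other background correction and scaling, the deposited scores, other filters, 1 probe per gene, outlier spots kept, array weights, replicate or slide as a block, signal spread as a covariate, only the groups compared, and arrays left out.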

Additional observations from a re-analysis of the deposited data

Results flagged for a closer look

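Of 40 groups of 4 arrays, 1 for each of the 10 probes in each group, 2 had an array far from the other 3, where chance gives about 1 in 20. For Cdkn1c in CB1KO_SD, replicate 3 (2.86) lay below the others (3.25 to 3.30), and its gap was 0.879 of the group's range, above the critical value of 0.829. For Cdkn2c in WT_HFHS, replicate 3 (0.07) lay below the others (0.50 to 0.57), with a gap of 0.862 of the range.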

How the results depend on the processing

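The count of member probes past the threshold averaged over both diets was 1 with the replicate block (0.236% of all tested probes passed), 1 with slide as a block (0.755%), 4 with array weights (7.5%) and 4 with signal spread as a covariate (5.44%), and ranged from 0 to 3 without 1 array. On HFHS it was 4 with array weights (7.77%), 1 with the replicate block (0.0935%) and 3 with signal spread as a covariate (1.08%), and ranged from 0 to 3 without 1 array. The chosen Cdkn1a entered the HFHS count too with normexp and quantile normalization (0.32%) and without both arrays of unusual spread (0.588%). So it did when only probes well above background on all 16 arrays were kept (0.471%). All these counts include the chosen Cdkn1a and Gadd45a. The 1 call under the replicate block was the chosen Gadd45a, on average and on HFHS. With slide as a block the 1 call was the chosen Cdkn1a. No member outside the choice passed under either block. Arrays whose absence ended all calls are CB1KO_HFHS replicates 3 and 4 and WT_HFHS replicates 1 and 2 in both, CB1KO_SD replicate 4 and WT_HFHS replicate 4 on average, and WT_HFHS replicate 3 on HFHS. Same-numbered arrays correlated between -0.739 and 0.604 over their deviations, with 8 of 24 pairs above 0.1. Whether same-numbered arrays share more than the slide column was not tested. Under the replicate block Cdkn2a had a limma adjusted p of 0.0611 on average and 0.0782 on HFHS.

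Signs turned only for differences near 0 that had not passed, and the cause was not tested. Gadd45g between genotypes on HFHS (-0.03) gave 0.67 with array weights, 0.42 with both arrays of unusual spread left out, 0.03 with the deposited scores, 0.08 with normexp and quantile normalization, 0.10 with quantile normalization alone and -0.47 to 0.42 without 1 array. Cdkn1c between diets in WT (0.04) gave 0.00 with normexp and quantile normalization and 0.00 to 0.08 without 1 array. The Cdkn1a brighter probe between diets in CB1KO (0.23) gave -0.08 to 0.56 without 1 array. Gadd45b between diets in WT (0.12) gave -0.04 with array weights. The Cdkn1a dimmer probe between genotypes on average (-0.08) gave 0.01 with signal spread as a covariate, 0.06 with the deposited scores, 0.06 with normexp and quantile normalization, 0.07 with quantile normalization alone and -0.27 to 0.03 without 1 array. The Cdkn1a dimmer probe between diets in CB1KO (-0.29) gave 0.10 with signal spread as a covariate, 0.21 with array weights, 0.30 with both arrays of unusual spread left out, 0.00 with the deposited scores, 0.02 with normexp and quantile normalization, 0.02 with quantile normalization alone and -0.50 to 0.09 without 1 array. The Cdkn1a dimmer probe between genotypes on HFHS (-0.02) gave 0.12 with signal spread as a covariate, 0.10 with array weights, 0.18 with both arrays of unusual spread left out, 0.16 with the deposited scores, 0.09 with normexp and quantile normalization, 0.15 with quantile normalization alone and -0.23 to 0.18 without 1 array. The Cdkn1a dimmer probe in the interaction (0.11) gave -0.10 to 0.50 without 1 array. The Cdkn1a dimmer probe between genotypes on SD (-0.13) gave 0.03 with normexp and quantile normalization and -0.52 to 0.03 without 1 array. Cdkn1b between diets in CB1KO (0.11) gave -0.03 with signal spread as a covariate and -0.03 with both arrays of unusual spread left out. Cdkn1b in the interaction (-0.10) gave -0.20 to 0.04 without 1 array. Cdkn2c between diets in WT (-0.04) gave 0.05 with array weights, 0.04 with the deposited scores and -0.10 to 0.08 without 1 array. Cdkn2c between genotypes on HFHS (0.04) gave -0.11 with array weights, -0.08 with both arrays of unusual spread left out, -0.01 with normexp and quantile normalization and -0.08 to 0.11 without 1 array. No other difference of a member turned its sign under the alternatives run. Slide as a block gives no value for diet, which it matches.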
